A study of Mus musculus with 64 samples.

Results

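The transcripts of 37 genes of the cell cycle and of DNA replication were followed in mouse male germ cells and in whole testis, out of 26385 genes listed in each expression table. The genes were taken by symbol from a list of cell cycle genes, and every member was found once in all 47 RNA-Seq libraries. By role they comprise 2 marks of cycling cells, 4 genes of the passage from G1 to S, 9 genes of replication licensing, 3 genes of the replication fork and of nucleotide supply, 7 mitotic cyclins and kinases, 7 genes of the kinetochore and its checkpoint, and 5 genes of the spindle and cytokinesis.

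The sorted germ cells came from mice that were Morc1 het or Morc1 KO, where the KO allele is Morc1tg, a tyrosinase transgene insertion on the FVB/N background that removes exons of the gene for a germline ATPase. At E16.5, E18.5 and P2.5 the cells were sorted on the Oct4-IRES-eGfp reporter, on a mixed background, and at P10.5 on low side scatter, high EPCAM and absence of MHCI. Both fetal stages had 2 het and 2 KO libraries each, with 3 het and 2 KO libraries at P2.5, and 4 het and 3 KO libraries at P10.5. Whole testis was sequenced from the Morc1 line at P10.5 (1 WT, 2 het and 3 KO libraries, with 1 WT and 1 het library labelled preliminary) and at P14.5 (3 het and 3 KO), from the DNMT3L line at P10.5 (3 WT, 3 het and 3 KO), and from the Miwi2 line at P10.5 (2 het and 2 KO), the strains of the last 2 lines not being given in the labels. Each library was made from 1 mouse. E and P count days of gestation and days after birth.

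A dividing cell licenses its replication origins by loading the MCM helicase in G1, fires them in S phase under cyclin E and cyclin A kinases, and enters mitosis under cyclin B and Cdk1. Many of the genes involved are transcribed only in cycling cells, S phase genes through E2F factors and mitotic genes through promoters with CHR and CCAAT elements. The DREAM and MuvB complexes act at the CHR. Male germ cells of the mouse stop dividing in the fetal gonad, stay arrested until around birth, and then resume mitosis as spermatogonia before they enter meiosis.

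The promoters of 4 members that the results below turn on are shown because these elements recur in them: Mki67, which encodes the antigen of cycling cells, Cdk1, the mitotic kinase, Mcm5, a subunit of the replicative helicase, and Rrm2, the S phase subunit of ribonucleotide reductase. Each stretch is the 250 bases upstream of the RefSeq start (GRCm38.p6), 5′ to 3′ on the gene's strand, and capitals mark the CHR, spelled TTTGAA or in a rarer form TTCGAA, the CCAAT box and an E2F site, spelled TTCCCGC in one form, TTGGCGC in another, then also TTCGCGC and finally the form TTGCCGC, all read on both strands.
Mki67 (chr7:135716380-135716629, minus strand): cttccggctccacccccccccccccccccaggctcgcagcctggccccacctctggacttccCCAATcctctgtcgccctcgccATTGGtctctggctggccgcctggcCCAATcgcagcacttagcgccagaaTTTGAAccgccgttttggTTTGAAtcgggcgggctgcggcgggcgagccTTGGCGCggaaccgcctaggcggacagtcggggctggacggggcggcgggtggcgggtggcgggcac
Cdk1 (chr10:69352913-69353162, minus strand): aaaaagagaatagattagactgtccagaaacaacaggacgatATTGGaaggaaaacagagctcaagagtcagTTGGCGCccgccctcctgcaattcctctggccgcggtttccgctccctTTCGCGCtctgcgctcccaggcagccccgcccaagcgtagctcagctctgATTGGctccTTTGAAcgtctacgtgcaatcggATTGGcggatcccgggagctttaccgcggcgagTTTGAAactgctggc
Mcm5 (chr8:75109259-75109508, plus strand): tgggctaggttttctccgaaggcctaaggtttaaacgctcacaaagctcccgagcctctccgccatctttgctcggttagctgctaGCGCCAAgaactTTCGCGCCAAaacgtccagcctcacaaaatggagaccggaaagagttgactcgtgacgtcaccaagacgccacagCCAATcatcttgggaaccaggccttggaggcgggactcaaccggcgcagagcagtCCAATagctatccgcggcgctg
Rrm2 (chr12:24708004-24708253, plus strand): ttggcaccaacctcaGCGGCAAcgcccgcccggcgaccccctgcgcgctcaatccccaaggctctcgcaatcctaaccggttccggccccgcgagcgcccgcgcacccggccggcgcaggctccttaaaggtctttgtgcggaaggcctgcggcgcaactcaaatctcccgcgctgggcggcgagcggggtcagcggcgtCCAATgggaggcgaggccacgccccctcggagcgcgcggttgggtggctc

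Of the 37 members, 30 had a promoter in the RefSeq table. A CCAAT box was present in 24 of them (80.0%, against 33.8% of 32851 promoters), a CHR in 9 (30.0%, against 17.1%) and an E2F site in 10 (33.3%, against 7.89%). Those of Mcm5 and Rrm2 shown above hold no CHR, and in Mcm5 a pair of the E2F matches overlap by several bases. Among the 17 promoters of the mitotic groups and the marks of cycling cells, 7 held a CHR (41.2%) and 3 an E2F site (17.6%), whereas among the 13 of the G1 to S and replication groups 2 held a CHR (15.4%) and 7 an E2F site (53.8%). These matches describe letters in a window and not bound sites.

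The sorted libraries were shallower than those of testis, with 2413679 to 14918478 reads counted to genes (median 7542692) in 20 libraries, against 22509570 to 42137954 (median 28815956) in 27, and the 4 libraries of E18.5 and 2 of P2.5 were the shallowest, with up to 4007833. Markers of germ cells summed to between 418.0 and 1151 RPKM (reads scaled to exon length and to mapped reads) in the sorted libraries, where those of Sertoli cells, the somatic nurse cells, summed to between 12.68 and 49.59. At E18.5 endothelial markers summed to between 33.26 and 43.03, near the 31.86 to 36.37 of Morc1 control testes at P10.5. The highest of these markers was Pecam1 at E18.5 (16.83 to 23.15) but Cdh5 in those testes (20.13 to 23.28). Like sums therefore need not mean like amounts of endothelial RNA. Peritubular and stromal markers summed to between 13.94 and 19.18, against 1192 to 1422 in those testes, though the kits differ. Morc1 was lower in every KO library than in every control at each stage (log2 fold −2.25, −2.32, −1.56 and −1.05 in germ cells from E16.5 to P10.5, with an adjusted p of 0.14 at E18.5). Dnmt3l was lower in the DNMT3L KO testes (−3.93). Piwil4, the gene of Miwi2, was not lower in the libraries labelled Miwi2 KO. It measured 10.7 and 11.6 RPKM there against 6.65 and 7.01 in het (log2 fold 0.69, adjusted p = 0.00075). This transcript alone does not bear out the label, and whether the KO allele leaves a counted transcript was not tested. The paper reports that certain LINE elements and the IAP-Ey class were derepressed in its Miwi2 mutant testes.

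In sorted Morc1 het germ cells most members stood lower before birth than after it. Mki67 measured 5.44 and 6.21 RPKM at E16.5, 5.77 and 7.76 in the E18.5 libraries, and 88.9, 104 and 118 at P2.5. The 4 libraries of P10.5 gave 87.4, 82.8, 76.0 and 74.6. No fetal library came near any postnatal library, and the fetal means were 5.63% of the P2.5 mean at E16.5 and 6.53% at E18.5.

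Not all members were so low at E16.5. Relative to the P2.5 mean, in RPKM as deposited and not scaled further, the E16.5 means ranged from 4.82% for Rrm2 to 99.6% for Bub1, a kinase of the spindle checkpoint, with a median of 33.3%, and 27 of 37 members stood under 50%. By E18.5 the median was 18.7% and 34 members stood under 50%. The 3 above that level at E18.5 were Ccne2 (84.6%), Cdk2, the kinase partner of cyclin E (82.9%), and Nusap1, a spindle protein (53.9%). The kinetochore and checkpoint genes were the group with the highest median at E16.5 (65.5%), and they stood at 16.4% at E18.5.

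**Figure D1:**
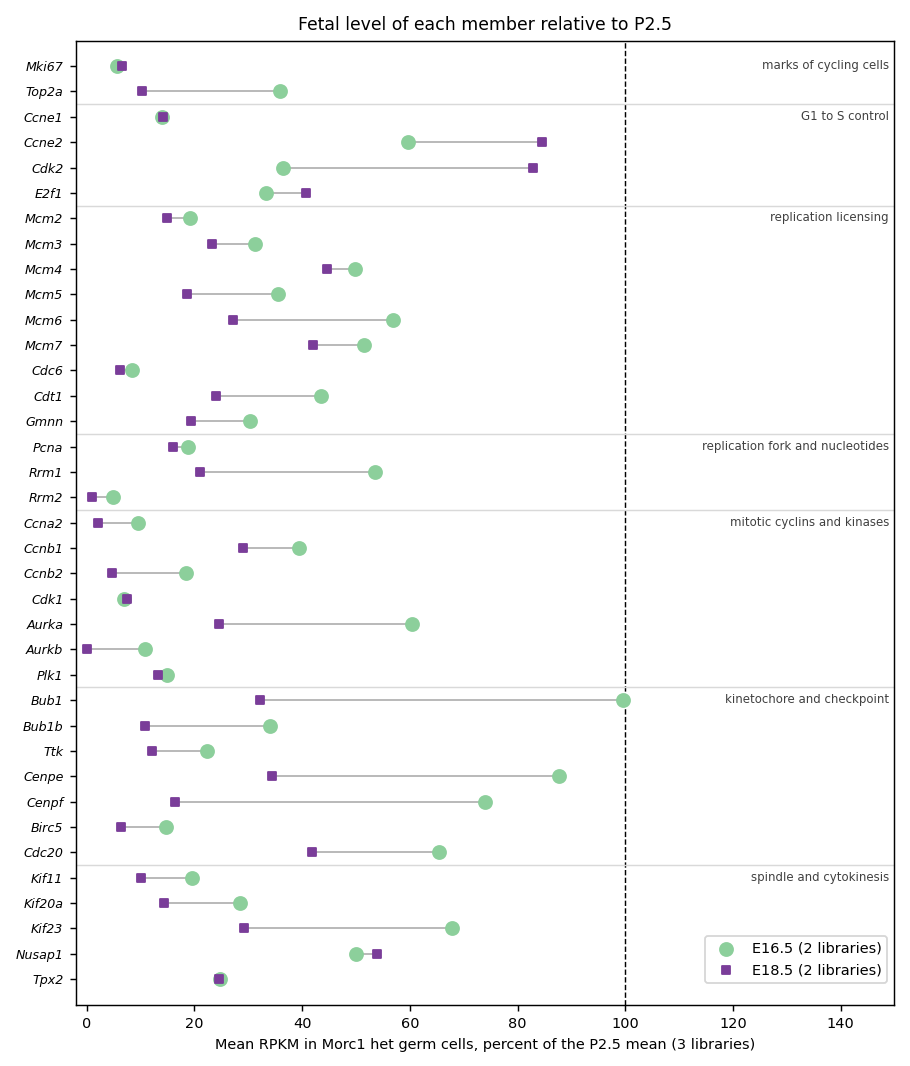
Mean RPKM of each member in Morc1 het germ cells at E16.5 (circles, 2 libraries) and E18.5 (squares, 2 libraries), in percent of its mean at P2.5 (dashed line, 3 libraries), with members grouped by role. Mki67, Cdk1 and Ccne1 stood as low at E16.5 as at E18.5, while Bub1, Cenpe and Cenpf fell from 73.95% or more to 34.4% or less.

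From E16.5 to E18.5 in het cells 19 of 37 members fell and 1 rose (edgeR, adjusted p under 0.05), against 18.7% of the 16890 genes tested that were called in either direction. A fit of the libraries of these stages alone called 7 lower and 1 higher. The median log2 fold of the members was −0.83, and that of all genes tested −0.07. Among kinetochore and checkpoint genes 6 of 7 fell, and among mitotic cyclins and kinases 4 of 7. In replication licensing 4 of 9 fell, and in G1 to S control none fell. Cenpf, a kinetochore protein made late in the cycle, measured 31.3 and 38.1 RPKM at E16.5 and 6.55 and 8.83 at E18.5 (log2 fold −2.13 ± 0.17 SE, adjusted p = 1.7e-06). Top2a, the topoisomerase that untangles replicated DNA, went from 27.9 and 37.9 to 10.8 and 7.94 (−1.80 ± 0.15, adjusted p = 1.7e-06). Bub1 went from 32.9 and 43.4 to 9.79 and 14.9 (−1.57 ± 0.22, adjusted p = 0.00010). In all 3 genes both E18.5 libraries lay below both E16.5 libraries, which held for 24 of 37 members and for 32.9% of genes tested.

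Markers of cell types also moved from E16.5 to E18.5. Of 8 germ cell markers 4 were lower and 1 higher (summed RPKM 875.5 to 1151 at E16.5 and 693.4 to 775.7 at E18.5), and of 8 of undifferentiated spermatogonia 5 were higher (76.74 to 95.91 and 124.0 to 169.6). Of 7 Sertoli cell markers 1 was higher (12.68 to 17.2 and 21.07 to 34.45), as was 1 of 5 endothelial markers (19.23 to 23.68 and 38.59 to 43.03). What part these cells had in the falls was not tested.

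Mki67 and Cdk1, at 5.63% and 6.97% of their P2.5 means at E16.5, did not pass the test over this interval. The log2 fold was 0.26 ± 0.16 for Mki67 (adjusted p = 0.31) and 0.10 ± 0.34 for Cdk1 (adjusted p = 0.88). Rrm2 and Ccna2 were also low at E16.5 (4.82% and 9.57%) and lower still at E18.5 (0.909% and 2.12%). The single member that rose was Cdk2, from 5.99 and 7.39 RPKM to 18.4 and 12.1 (1.19 ± 0.21, adjusted p = 0.00071). Its level at E18.5 overlapped that of P2.5, where it measured 15.8, 16.8 and 22.7.

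A few members fell to a handful of reads, so folds against a group without reads are given as bounds. Aurkb, the kinase of the chromosomal passenger complex, had 0 reads in both het libraries of E18.5. Against a floor of 3 reads over the group its level was at least 8.625-fold higher at E16.5 and at least 85.01-fold higher at P2.5. Rrm2 had 3 reads and 1 read in the het libraries of E18.5, and 0 in both KO libraries. In KO cells Rrm2 was at least 4.88-fold higher at E16.5 and at least 133.2-fold higher at P2.5. The medians given here keep their value with these genes at their bound, which lies on the same side.

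Between E18.5 and P2.5 in het cells 35 of 37 members rose and none fell, against 18.1% of genes tested that rose. The median log2 fold was 2.22, that of all genes tested −0.07, and every P2.5 library lay above both E18.5 libraries for the same 35 genes (23.1% of genes tested). All members of the replication licensing, fork, mitotic kinase, kinetochore and spindle groups rose, with group medians of 1.93, 2.47, 3.58, 2.40 and 1.85. Both members not called belong to G1 to S control: Ccne2 (0.02 ± 0.25) and Cdk2 (0.10 ± 0.19).

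Markers of cell types moved in the same step. Of 8 markers of undifferentiated spermatogonia 5 were higher at P2.5 (median log2 fold 2.40, summed RPKM 124.0 to 169.6 at E18.5 and 298.8 to 392.4 at P2.5), and of 7 of early meiosis 3 were higher (112.0 to 118.8 and 141.1 to 191.3). By the paper's account, meiotic cells arise between about P2.5 and P10.5. The early meiosis list therefore need not mark meiotic cells in this step. Among somatic cells, 4 of 8 peritubular and stromal markers were lower (16.49 to 19.18 and 4.83 to 11.34), as were 2 of 5 endothelial (38.59 to 43.03 and 21.72 to 25.64), 2 of 5 tested Leydig cell (4.83 to 6.94 and 1.13 to 3.14) and 2 of 3 tested blood markers (24.73 to 31.65 and up to 1.89). Of 7 Sertoli cell markers 1 was higher and 2 lower (21.07 to 34.45 and 20.23 to 22.04). Their part in the rise of the members was not tested.

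Apart from Aurkb, which has only a bound, the fitted folds of Rrm2 and Ccna2 were the highest. Rrm2 went from 0.21 and 0.06 RPKM to 13.8, 13.4 and 16.8 (6.60 ± 0.40, adjusted p = 1.9e-08), a fold that rests on 3 reads and 1 read at E18.5 and whose size is therefore uncertain. Ccna2, the cyclin of S phase and G2, went from 2.19 and 0.394 to 52.6, 64.8 and 65.3 (5.45 ± 0.33, adjusted p = 2.0e-08). The log2 fold of Mki67 was 3.73 ± 0.17 (adjusted p = 1.1e-09).

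The remaining genes shown in the plot of index genes rose less. Cdk1 went from 1.25 and 0.67 RPKM to 10.97, 12.8 and 14.9 (3.58 ± 0.31, adjusted p = 5.2e-07). Mcm5 went from 7.29 and 8.25 to 42.6, 38.3 and 43.9 (2.22 ± 0.15, adjusted p = 4.6e-08). Ccnb1, the mitotic cyclin, went from 7.16 and 10.8 to 25.1, 33.4 and 34.1 (1.57 ± 0.21, adjusted p = 4.0e-05). The groups of libraries did not overlap in any of them. Ccne1, the first cyclin of S phase entry, went from 3.10 and 0.13 RPKM to 13.1, 9.82 and 11.2 (2.73 ± 0.64, adjusted p = 0.0033). E2f1, the transcription factor of S phase genes, went from 5.14 and 11.2 to 25.8, 15.2 and 19.3 (1.06 ± 0.32, adjusted p = 0.015). For these the E18.5 libraries differed from each other, Ccne1 resting on 41 reads in one and 2 in the other.

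**Figure D2:**
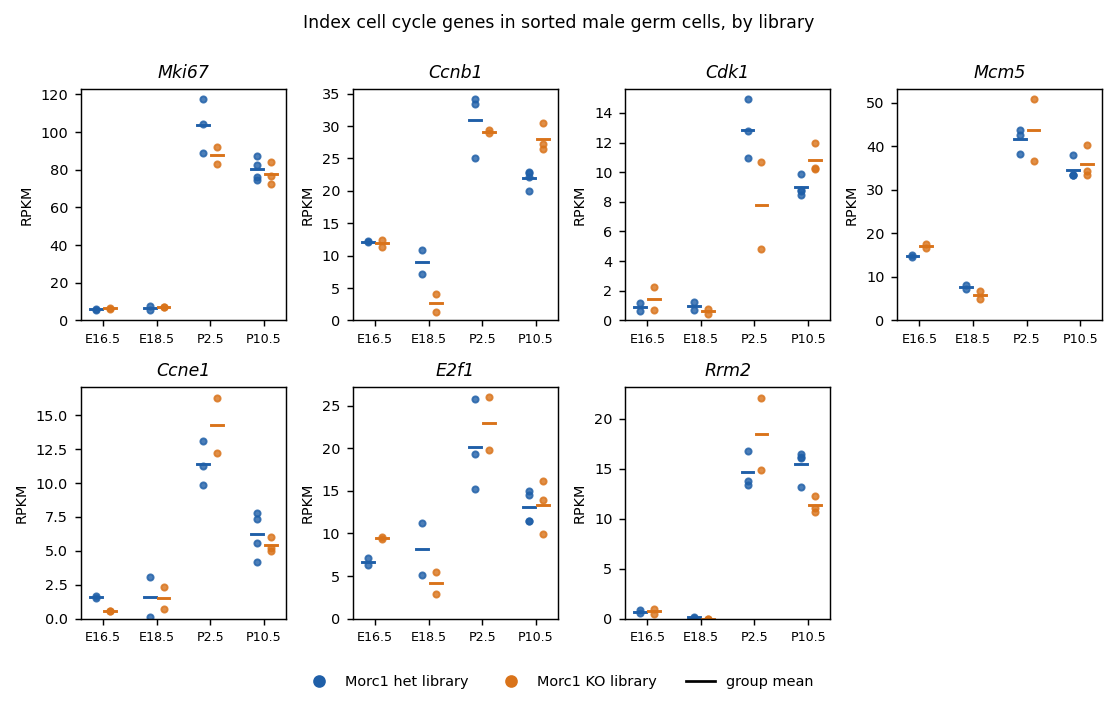
RPKM of 7 index genes in every sorted germ cell library by stage, with Morc1 het in blue, Morc1 KO in orange and group means as bars. Each gene is lower in all 8 fetal libraries than in all 12 postnatal ones, except E2f1, whose highest fetal library (11.2) lies above its lowest at P10.5 (9.94). At P10.5 the 3 KO libraries lie below the 4 het libraries for Rrm2 and above them for Ccnb1.

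From P2.5 to P10.5, where the gate also changed, as the strain background may have, so that neither can be told apart from age, 4 members rose and 4 fell in het cells, against 13.4% of genes tested that rose and 14.2% that fell. Ccne2 rose most, from 6.09, 3.80 and 7.17 RPKM to 18.3, 18.0, 18.9 and 18.8 (2.00 ± 0.21, adjusted p = 5.7e-06). Gmnn, the inhibitor of licensing, rose by 0.61 on the log2 scale, Kif23, a cytokinesis motor, by 0.52, and Cenpf by 0.37. Mcm3 fell by 0.66, the checkpoint kinase gene Bub1b by 0.55, Ccnb2 by 0.51 and Kif20a by 0.47. The median log2 fold of the members was −0.10. The split depended on the fit, with 1 higher and 9 lower in limma on RPKM, and 4 higher and 11 lower in a fit of the libraries of these stages alone. Leaving out het replicate 2 of P2.5, or any of the 4 het libraries of P10.5, gave 4 or 5 calls in place of 8. Markers moved in this step as well. Of 8 germ cell markers 5 were lower (summed RPKM 633.6 to 848.3 at P2.5 and 418.0 to 507.2 at P10.5), as were 5 of 8 of undifferentiated spermatogonia (298.8 to 392.4 and 146.6 to 157.7) and 3 of 5 endothelial markers (21.72 to 25.64 and 4.61 to 5.03). Of 6 markers of differentiating spermatogonia 4 were higher and 1 lower (78.18 to 96.63 and 143.4 to 171.9), of 7 of early meiosis 5 were higher and 1 lower (141.1 to 191.3 and 191.6 to 213.8), and of 7 Sertoli cell markers 3 were higher (20.23 to 22.04 and 30.11 to 49.59). Their part in the values of the members was not tested.

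Other genes of replication and mitosis moved with the members over birth. In a list of 36 further replication genes 28 rose and 1 fell from E18.5 to P2.5, and in a list of 39 further mitosis genes 31 rose and 1 fell. Uhrf1, which brings maintenance methylation to replicating DNA, rose by 3.44 on the log2 scale, and the kinetochore gene Spc24 by 4.07. The exceptions were Pola1, a subunit of DNA polymerase alpha (−0.80), and the phosphatase gene Cdc25b (−1.28). Of the transcription factors of mitotic genes, Foxm1 rose from 5.38 and 8.55 RPKM to 38.7, 37.0 and 39.0 (2.24, adjusted p = 6.7e-07) and Mybl2 from 2.69 and 0 to 29.5, 21.3 and 23.2 (4.12, adjusted p = 6.8e-05).

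Of the inhibitors of cyclin-dependent kinases, Cdkn1c (p57) had the reverse course. It measured 29.6 and 41.5 RPKM at E16.5, 102 and 100.1 in the E18.5 libraries, 17.8, 20.7 and 21.5 at P2.5, and 6.81 to 8.14 at P10.5. It rose from E16.5 to E18.5 (log2 fold 1.54, adjusted p = 8.6e-06) and fell from E18.5 to P2.5 (−2.52, adjusted p = 1.2e-08) and again to P10.5 (−1.14, adjusted p = 8.8e-06). Cdkn1a (p21) went from 3.39 and 2.04 at E18.5 to 4.90, 17.6 and 15.6 at P2.5 (2.07, adjusted p = 0.0035), with 1 of the 3 libraries close to the fetal level. It then measured 1.96 to 3.28 at P10.5.

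Of the D cyclins, which carry growth signals to Cdk4 and Cdk6 in G1, Ccnd1 and Ccnd2 rose both from E16.5 to E18.5 and from E18.5 to P2.5, while Ccnd3 was called in neither step (0.41, adjusted p = 0.21, and 0.22, adjusted p = 0.41). In the list of 5 D cyclins and partners 2 genes were lower from E18.5 to P2.5 (lowest log2 fold −1.26), neither of them a D cyclin. Ccnd1 went from 1.49 and 2.59 RPKM at E16.5 to 10.8 and 7.52 at E18.5 (2.18, adjusted p = 4.2e-06) and to 30.5, 33.3 and 35.6 at P2.5 (1.69, adjusted p = 3.8e-06). Ccnd2 went from 3.30 and 4.22 to 18.46 and 12.4 (2.04, adjusted p = 6.8e-07) and then to 69.1, 79.8 and 77.3 (2.12, adjusted p = 2.2e-08). Between E16.5 and E18.5, when both rose, 19 members fell and only Cdk2 rose. At P10.5 Ccnd2 was back to 17.9 to 19.4.

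**Figure D3:**
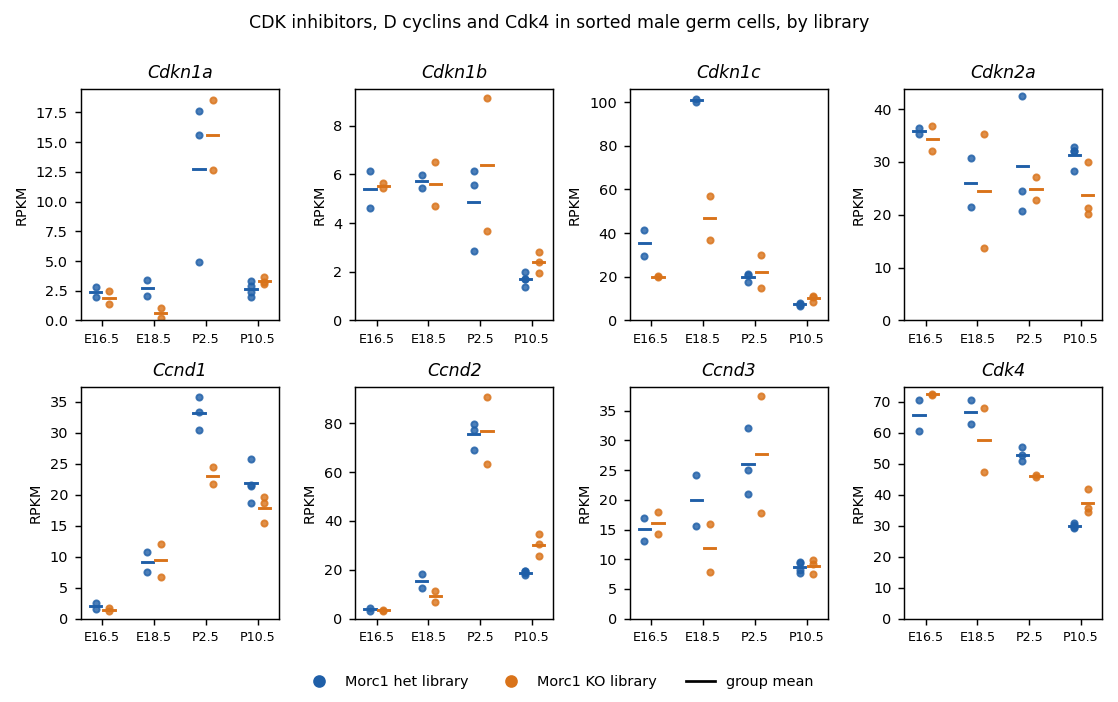
RPKM of 4 kinase inhibitors (Cdkn1a, Cdkn1b, Cdkn1c, Cdkn2a), the D cyclins and Cdk4 in every sorted germ cell library by stage, with Morc1 het in blue, Morc1 KO in orange and group means as bars. Cdkn1c peaks at E18.5 in het cells at 100.1 and 102 RPKM, above both KO libraries at 36.7 and 57.1.

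In Morc1 KO germ cells 27 of 37 members stood under 50% of their P2.5 mean at E16.5 and 35 at E18.5, with medians of 40.8% and 19.3% in RPKM. Bub1 (122%), Cenpe (121.8%), Cenpf (105.6%), Aurka, a spindle pole kinase (100.2%), Cdc20, the activator of the anaphase-promoting complex (90.1%), and Kif23 (78.53%) stood highest at E16.5, and Ccne2 (90.64%) at E18.5. From E16.5 to E18.5 20 members fell and 1 rose in KO cells, against 12.6% and 6.85% of 16638 genes tested. From E18.5 to P2.5 35 members rose and none fell (15.4% of genes tested rose), Ccne2 and Cdk2 again not being called. Markers moved in KO cells too. From E16.5 to E18.5 4 of 8 germ cell markers were lower and 1 higher (summed RPKM 1031 to 1103 and 584.6 to 708.2), and 3 of 7 Sertoli cell markers were higher (15.37 to 17.76 and 32.45 to 36.64). From E18.5 to P2.5 7 of 8 markers of undifferentiated spermatogonia were higher (67.91 to 124.0 and 307.2 to 327.4), 2 of 5 endothelial markers lower and 1 higher (33.26 to 36.04 and 20.66 to 25.34), and 2 of 5 tested Leydig cell (3.04 to 16.95 and 0.871 to 2.98) and 2 of 4 tested blood markers (24.82 to 40.9 and 1.87 to 5.32) lower. The part of these cells in the members' values was not tested. From P2.5 to P10.5 3 members rose, namely Ccne2 (1.12), Cenpf (0.85) and Cenpe, a kinetochore motor (0.58), against 7.76% of genes tested, and 7 members were called without KO replicate 2 of P2.5. Marker sums were lower at P10.5 for undifferentiated spermatogonia (307.2 to 327.4 and 186.6 to 233.3) and endothelial cells (20.66 to 25.34 and 6.355 to 6.81). They were higher for differentiating spermatogonia (57.59 to 79.3 and 94.65 to 112.5), and overlapped for early meiosis and Sertoli cells. The part of these cells in this step was not tested either.

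Of the index genes in KO cells, Mki67 measured 6.78 and 6.14 RPKM at E16.5, 7.16 and 7.02 in the E18.5 libraries, 83.2 and 92.0 at P2.5, and 83.9, 76.7 and 72.3 in the cells of P10.5. Mcm5 measured 16.54 and 17.5, then 6.76 and 4.81, then 36.7 and 51.0 in the first 3 stages, where het cells of E16.5 had 14.6 and 15.1. Cdk1 measured 2.24 and 0.68, then 0.46 and 0.80, then 4.84 and 10.7. The KO libraries of P2.5 lay apart from each other for Cdk1, while the rise over birth exceeded that spread in all 3 genes (log2 fold 3.34 ± 0.14 for Mki67 and 3.31 ± 0.60 for Cdk1).

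The difference between the genotypes in each of these steps was tested as an interaction. It was called for no member from E16.5 to E18.5 (0.253% of genes tested were called) and for none from P2.5 to P10.5 (0.304%), with 1790 and 2179 genes at an unadjusted p under 0.05. From E18.5 to P2.5 it was called for 2 members (1.13% of genes tested). Ccnb1 rose more in KO cells, from 4.06 and 1.32 RPKM to 29.4 and 28.9 (difference of log2 folds 1.64 ± 0.37, adjusted p = 0.030). Ccnb2 rose less, from 3.15 and 6.63 to 20.1 and 20.6 (−2.55 ± 0.47, adjusted p = 0.0075). These calls rest on the shallow E18.5 libraries, in which Ccnb2 had 12 to 62 reads and Ccnb1 20 to 207. Leaving out E18.5 het replicate 1 gave 11 calls in this step and 8 from E16.5 to E18.5, leaving out E18.5 KO replicate 1 gave 5 and 4, and leaving out P2.5 KO replicate 2 gave 4 calls in this step and 1 in the next. Without E18.5 het replicate 2 or E18.5 KO replicate 2, there was 1 call in this step, as with limma on RPKM, while DESeq2 gave 5.

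With each stage fitted on its own, no member passed the test between KO and het germ cells before birth or at P2.5, while one fit over all sorted libraries called 4 members at E18.5, 1 higher and 3 lower. The shares of all genes tested that were called were 0.421%, 0.0416% and 0.0486%. Every KO library lay above every het library for 7, 10 and 0 members (19.3%, 19.6% and 10.9% of genes tested) and below for 5, 8 and 14 (20.1%, 18.8% and 11.6%). Of the 14 at P2.5, 5 were among the 7 mitotic cyclins and kinases, whose median log2 fold was −0.69 there. At an unadjusted p under 0.05 6, 1 and 3 members and 1447, 895 and 698 genes were found. All members were tested at E16.5 and P2.5 and 35 at E18.5, where Aurkb and Rrm2 had too few reads. The widest differences were those of Ccne1 at E16.5 (1.49 and 1.68 RPKM in het, 0.55 and 0.56 in KO, log2 fold −1.59 ± 0.54, adjusted p = 0.31) and of Ccnb2 and Ccnb1 at E18.5 (1.86 ± 1.04 and −1.72 ± 0.60, adjusted p = 0.85 and 0.70).

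Among the inhibitors, Cdkn1c was lower in KO cells at E16.5, at 20.3 and 19.8 RPKM against 29.6 and 41.5 in het (log2 fold −0.90 ± 0.13, adjusted p = 0.00070). At E18.5 it was at 57.1 and 36.7 against 102 and 100.1 (−1.02 ± 0.20, adjusted p = 0.24). At P2.5 the groups overlapped, at 14.7 and 30.1 against 17.8 to 21.5. The fall from E18.5 to P2.5 was smaller in KO than in het cells (difference of log2 folds 1.18 ± 0.29, adjusted p = 0.043). That call rests on the shallow E18.5 libraries, and genes outside the members were not followed under alternative fits.

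At P10.5, in 4 het and 3 KO libraries of sorted cells, 3 members were lower in Morc1 KO and 1 was higher, against 5.79% and 6.43% of 14019 genes tested. One fit over all sorted libraries called none of them (adjusted p = 0.28 for Ccne2, 0.47 for Rrm2, 0.19 for Pcna and 0.88 for Ccnb1). The median log2 fold of the members was 0.00 and so was that of all genes tested. Ccne2 measured 18.3, 18.0, 18.9 and 18.8 RPKM in het and 13.7, 14.3 and 11.9 in KO (−0.56 ± 0.09, adjusted p = 0.00023). Rrm2 measured 16.46, 16.2, 16.1 and 13.2 in het and 12.2, 11.1 and 10.7 in KO (−0.53 ± 0.11, adjusted p = 0.0025). Pcna, the sliding clamp of the replication fork, measured 106, 103, 99.5 and 108 in het and 99.1, 85.7 and 70.8 in KO (−0.37 ± 0.09, adjusted p = 0.0058). In these 3 genes every KO library lay below every het library, by a narrow margin for Pcna, against 10.6% of genes tested.

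The higher member was Ccnb1, at 22.8, 22.2, 22.9 and 20.0 RPKM in het and 26.4, 27.2 and 30.4 in KO (0.27 ± 0.09, adjusted p = 0.045). It was called in 5 of 13 alternative fits. Mki67 (74.6 to 87.4 in het, 72.3 to 83.9 in KO) and Mcm5 (33.4 to 38.1 and 33.4 to 40.3) overlapped between the genotypes. In the wider lists Ccnd2 was higher in KO cells (17.9 to 19.4 in het, 25.5, 34.7 and 30.7 in KO, 0.60 ± 0.08, adjusted p = 1.4e-05) and both Ccnd1 (−0.36 ± 0.09, adjusted p = 0.011) and Cdk6, a partner kinase of the D cyclins (−0.79 ± 0.23, adjusted p = 0.022), were lower. Of the kinase inhibitors Cdkn2c (−1.14 ± 0.34, adjusted p = 0.028, at most 1.75 RPKM in any of these libraries) and Cdkn2a (−0.47 ± 0.13, adjusted p = 0.019) were lower and none higher. Of 11 genes of the pocket proteins and DREAM, Rbl1 (−0.37) and E2f4 (−0.34) were lower and none higher. Of the further replication genes 1 of 36 was higher and none lower, and of the further mitosis genes 2 of 39 were higher and 1 lower.

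Markers of the stages of spermatogonia moved in the same libraries. Of 6 markers of differentiating spermatogonia 4 were lower in KO cells (summed RPKM 143.4 to 171.9 in het and 94.65 to 112.5 in KO) and of 8 markers of undifferentiated spermatogonia 4 were higher (146.6 to 157.7 and 186.6 to 233.3). Of 7 markers of early meiosis 4 were lower (191.6 to 213.8 and 167.1 to 175.3), and of 7 tested of germ cells at large 3 were higher (418.0 to 507.2 and 495.5 to 557.8). Of 7 Sertoli cell markers 2 were lower (30.11 to 49.59 and 19.92 to 38.19). Of 6 tested peritubular and stromal markers 2 were higher (9.17 to 10.09 and 12.23 to 13.27), and of 5 endothelial markers none was called (4.606 to 5.03 and 6.355 to 6.81). Their part in the values of the members was not tested.

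In whole testis of the same age and line nearly every member fell. At P10.5 35 of 37 members were lower in Morc1 KO and none higher, against 9.26% of 15165 genes tested that were lower, and for 35 members every KO library lay below every control (18.9% of genes tested). The median log2 fold was −0.43, from −1.11 to −0.05, and that of all genes tested 0.01. The falls reached every role group, with group medians between −0.39 and −0.59. In a bulk sample fewer cells of a type and less RNA per cell cannot be told apart.

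Ccne2 fell most, from 9.11, 8.56 and 8.50 RPKM in the WT and het testes to 4.83, 3.56 and 3.70 in KO (−1.11 ± 0.10, adjusted p = 9.6e-05). Rrm2 went from 19.7, 17.6 and 19.5 to 10.8, 8.82 and 10.51 (−0.90 ± 0.08, adjusted p = 7.3e-05), and Ccne1 from 5.70, 4.94 and 5.77 to 3.37, 3.39 and 3.23 (−0.70 ± 0.09, adjusted p = 0.00076). Mki67 went from 18.0, 17.4 and 16.2 to 13.3, 9.06 and 12.0 (−0.57 ± 0.11, adjusted p = 0.0065). The KO libraries were the lowest in each of them, and the testes of the preliminary set, 1 WT and 1 het, gave 7.89 and 7.49 for Ccne2 and 16.7 and 17.4 for Mki67, above all KO libraries. Mcm5 went from 45.1, 38.6 and 44.8 to 30.7, 29.2 and 28.9 (−0.52 ± 0.06, adjusted p = 0.00043). E2f1 went from 16.9, 13.2 and 15.9 to 11.2, 12.1 and 11.9, and Ccnb1 from 37.1, 33.5 and 36.6 to 28.3, 28.0 and 28.3. Every KO testis lay below every control testis in these genes as well, by a narrow margin for E2f1.

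The members not called were Cdk1 (21.2, 15.6 and 18.6 RPKM in controls, 15.1, 14.3 and 17.4 in KO, −0.22 ± 0.10, adjusted p = 0.16) and Cdk2 (52.4, 52.5 and 52.3, 47.8, 52.3 and 50.5, −0.05 ± 0.05, adjusted p = 0.57). Cdk2 was also the member with the lowest ratio of level in sorted germ cells to level in testis, at 14.1 RPKM in sorted P10.5 het cells and 52.8 in the control testes of the DNMT3L line, although the kits differ between these libraries. Of the further lists, 25 of 36 replication genes and 33 of 39 mitosis genes were lower and none higher. Ccnd1 (−0.75 ± 0.08) and Cdkn2a, an inhibitor of Cdk4 and Cdk6 (−0.76 ± 0.08), were lower as well.

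The order of the falls in testis resembled the order of the folds in sorted germ cells of the same age. Over the 37 members Pearson's r was 0.81 and Spearman's rho 0.77 between both sets of log2 folds, which come from different mice and share no library, while the genes share their regulation and are not independent. Ccne2 and Rrm2 had the lowest fold in both. As the folds differed in size, the effect of the KO in testis was compared with that in sorted cells in one fit over both, a comparison chosen after the values were seen. The effect was lower in testis for all 37 members (median −0.41, all genes tested −0.02), and the difference was called for 20, against 3.15% of 15191 genes tested that were lower. Library kit, sorting and the WT library among the testis controls differ along with tissue and cannot be told apart from it. Cenpf (−0.59 ± 0.13), Ccnb1 (−0.58 ± 0.11) and Ttk, a checkpoint kinase (−0.53 ± 0.13), differed most. The count was 9 without testis KO replicate 2, 10 without the WT testis, and 11 without testis KO replicate 3 or het replicate 3.

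Markers of germ cell stages fell in the same testes. All 6 markers of differentiating spermatogonia (summed RPKM 119.5 to 129.7 in controls and 65.91 to 73.81 in KO) and all 7 of early meiosis (102.8 to 107.9 and 50.19 to 56.39) were lower, as were 5 of 8 of germ cells at large (350.9 to 360.5 and 223.2 to 254.0). None of 8 markers of undifferentiated spermatogonia passed the test (79.44 to 86.53 and 79.79 to 89.58), and of 7 Sertoli cell markers 2 were higher (1144 to 1222 and 1202 to 1371). Also higher were 3 of 8 peritubular and stromal (1192 to 1422 and 1365 to 1485) and 2 of 5 endothelial markers (31.86 to 36.37 and 36.84 to 41.25). So were 2 of 5 macrophage and 1 of 6 Leydig cell markers, and none of these somatic lists held a lower marker. The part of these cells in the falls of the members was not tested.

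**Figure D4:**
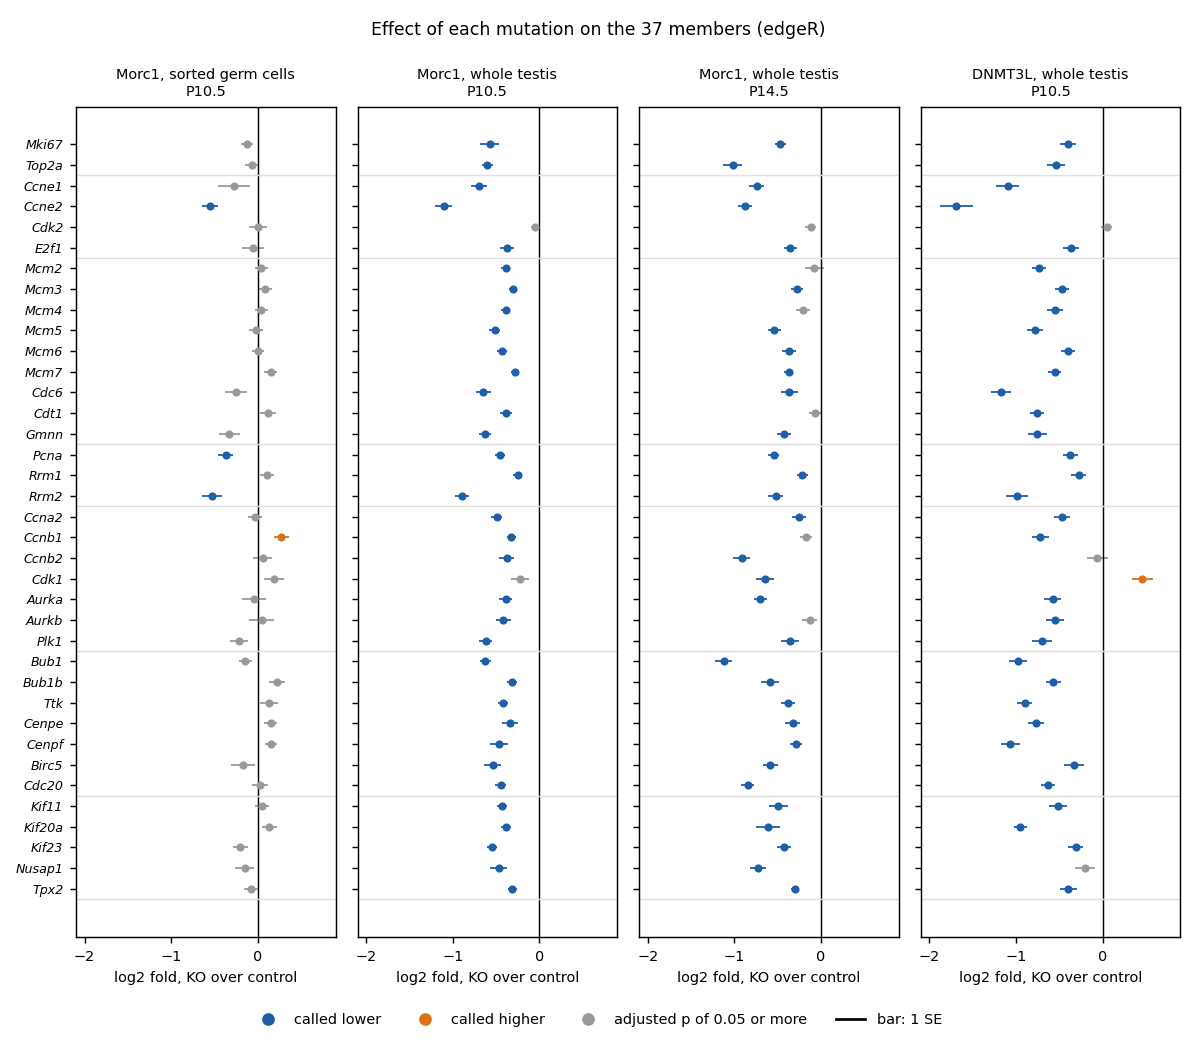
Log2 fold of KO over control (point, with a bar of 1 SE) for each of the 37 members in sorted germ cells of P10.5, in Morc1 testes of P10.5 and P14.5 and in DNMT3L testes of P10.5. Points are blue where called lower, orange where called higher and grey otherwise. The 3 panels of whole testis hold 35, 31 and 33 falling members, the panel of sorted germ cells 3.

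At P14.5 31 members were lower in Morc1 KO testis and none higher, against 20.1% of 15283 genes tested that were lower, and every KO library lay below every het library for 32 (27.4% of genes tested). The median was −0.42. Bub1 and Top2a fell most. Bub1 measured 48.5, 45.0 and 53.0 RPKM in het and 25.6, 19.8 and 21.5 in KO (−1.12 ± 0.10, adjusted p = 0.00013). Top2a measured 96.5, 83.8 and 96.3 in het and 53.6, 38.6 and 43.9 in KO (−1.02 ± 0.11, adjusted p = 0.00031). Both had risen with age in control testes. Of the index genes, Mki67 went from 18.6, 18.1 and 19.0 in het to 13.3, 12.4 and 14.3 in KO, Rrm2 from 26.8, 28.0 and 27.3 to 22.1, 17.1 and 17.6, and Cdk1, not called at P10.5, from 22.6, 19.3 and 23.9 to 15.5, 14.0 and 12.4 (−0.64 ± 0.10, adjusted p = 0.0020). No KO library reached a het library in these genes. The 6 members not called were Mcm2, Mcm4, Cdt1, Ccnb1, Aurkb and Cdk2.

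Between P10.5 and P14.5 the control testes themselves changed, with 16 members higher and 5 lower at P14.5 (29.6% and 29.2% of genes tested). Bub1 rose by 1.26 on the log2 scale (20.3 to 48.8 RPKM as group means), Ccne2 by 1.18 and Top2a by 0.83. Aurkb (−0.43), Ccna2 (−0.39), Ccnb1 (−0.31), Mcm2 (−0.20) and Rrm1 (−0.19) were lower. Markers moved in the same step, with all 7 tested of early meiosis (summed RPKM 102.8 to 107.9 at P10.5 and 425.5 to 597.8 at P14.5) and all 7 tested of pachytene and later (37.02 to 41.92 and 147.9 to 291.1) higher, and 6 of 7 Sertoli cell (1144 to 1222 and 872 to 891.3) and all 8 peritubular and stromal markers (1192 to 1422 and 757.8 to 822) lower. Their part in the change of the members was not tested.

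The effect of the KO differed between the ages for 3 of 37 members, against 8.22% of genes tested in either direction and 6.73% that were lower. This count of members was near the share of all genes. Ccnb2 (difference of log2 folds −0.55 ± 0.15, adjusted p = 0.032), Bub1 (−0.51 ± 0.12, adjusted p = 0.017) and Cdc20 (−0.41 ± 0.11, adjusted p = 0.026), fell further at P14.5. None of the 3 was called without KO replicate 1 or 3 of P10.5, KO replicate 3 of P14.5, het replicate 3 of P10.5, or het replicate 1 or 3 of P14.5, and without KO replicate 2 of P14.5 the calls were 3 higher and 0 lower. Without het replicate 2 of P10.5 1 member was higher and 1 lower, without KO replicate 2 of P10.5 1 was lower, and without KO replicate 1 of P14.5 6 were lower. In KO testes of P14.5 all 7 markers of early meiosis were lower (summed RPKM 425.5 to 597.8 in het and 126.6 to 148.1 in KO). So were all 7 tested of pachytene and later (147.9 to 291.1 and 41.52 to 46.52) and 7 of 8 of germ cells at large (891.6 to 1160 and 376.0 to 430.5). All 7 Sertoli cell markers were higher (872 to 891.3 and 1125 to 1276), and the part of these cells in these values was not tested.

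In DNMT3L KO testis, which lacks a cofactor of de novo DNA methylation, 33 members were lower and 1 higher, against 29% and 24.9% of 15665 genes tested. More than 1 in 2 genes was called in this comparison (53.9%), and the median of the members was −0.55 beside −0.00 for all genes tested. Every KO library lay below all 6 WT and het libraries for 30 members (25.4% of genes tested). Ccne2 measured 8.83, 10.8 and 7.68 RPKM in WT, 13.9, 10.4 and 7.66 in het and 2.39, 2.98 and 3.52 in KO (−1.69 ± 0.19, adjusted p = 2.0e-05). Cdc6, the loader of the MCM helicase, measured 5.45 to 7.21 in controls and 2.04, 2.86 and 2.78 in KO (−1.17 ± 0.12, adjusted p = 9.1e-06). Ccne1 measured 7.09 to 9.76 in controls and 2.83, 4.00 and 4.17 in KO (−1.10 ± 0.14, adjusted p = 4.0e-05).

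The member that was higher was Cdk1, at 17.7, 23.1 and 25.4 RPKM in WT, 18.8, 17.4 and 19.7 in het and 23.4, 31.6 and 26.3 in KO (0.46 ± 0.12, adjusted p = 0.0068). The KO libraries were high, but the groups overlapped, and Cdk1 was not called without KO replicate 2 (0.34, adjusted p = 0.054, where its 16 alternative fits ran from 0.00087 to that value). Cdk1 lies 8.69 Mb from Dnmt3l on chromosome 10 (mm9), the nearest any member lies to its line's targeted gene, and the part of the chromosome around the mutation was not tested. The members not called were Nusap1 (−0.20), Ccnb2 (−0.06) and Cdk2 (0.05).

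The effect of the KO differed between the DNMT3L and Morc1 lines at P10.5 for 4 members, against 17.6% of genes tested. Cdk1 was higher in DNMT3L KO relative to Morc1 KO (difference of log2 folds 0.73 ± 0.19, adjusted p = 0.014). Cenpf (−0.55 ± 0.17), Kif20a, a cytokinesis motor (−0.52 ± 0.11), and Ttk (−0.43 ± 0.11) fell further in DNMT3L KO. The count was 8 without DNMT3L WT replicate 1 and 2 without the Morc1 WT testis.

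Of the wider lists in DNMT3L KO, Ccnd1 went from 18.9 to 24.7 RPKM in controls to 5.30, 6.10 and 7.75 (−1.73 ± 0.12) and Cdkn2a from 29.2 to 37.4 to 8.00, 10.1 and 10.96 (−1.77 ± 0.11). Ccnd2 was higher (0.72 ± 0.10). Of the 6 kinase inhibitors 3 were lower, namely Cdkn2a, Cdkn2b (−0.72) and Cdkn1a (−0.42), and 3 higher, namely Cdkn2c (0.62), Cdkn1c (0.45) and Cdkn1b (0.32). All 8 germ cell markers were lower (448.6 to 580.4 in controls and 166.7 to 205.2 in KO), as were all 6 of differentiating spermatogonia (178.6 to 223.7 and 41.56 to 56.55). All 7 of early meiosis were lower (84.9 to 152.7 and 30.6 to 42.48), and of 8 of undifferentiated spermatogonia 4 were lower and 3 higher (89.21 to 104.6 and 59.58 to 64.66). Of 7 Sertoli cell markers 5 were higher (928.1 to 1192 and 1641 to 1725), as were 6 of 8 peritubular and stromal markers (957.3 to 1278 and 1284 to 1631). The control testes also differed in RNA of the epididymis, whose 6 markers summed to between 0.051 and 35.73 RPKM in controls, mostly from Crisp1 (up to 34.25), and to between 0.083 and 0.249 in KO. Leaving out any 1 library gave 32 to 35 called members, and the part of these cells in the falls was not tested.

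Loss of 1 copy of Dnmt3l was without a called member in 3 WT and 3 het testes (0.00651% of genes tested, and 0 members and 287 genes at an unadjusted p under 0.05). In the Miwi2 line no member passed the test (1.23% of genes tested did), with 11 members and 3229 genes at an unadjusted p under 0.05. DESeq2 called 4 members, 1 higher and 3 lower, and 6 members were called without het replicate 2. The log2 folds of the libraries labelled Miwi2 KO over het ran from −0.29 for Cdk1 to 0.27 for Mcm3. Both labelled KO libraries lay above both het libraries for 16 members and below them for 10, against 26.7% and 25% of genes tested. Ccne2 measured 14.0 and 14.2 RPKM in het and 13.2 and 13.2 in the libraries labelled KO, and Mki67 measured 14.9 and 20.3 and 16.52 and 20.4. Summed germ cell markers stood at 510.7 and 511.8 in het and at 555.7 and 556.9 in the libraries labelled KO. Of the 8 markers only Piwil2, a PIWI protein of the piRNA pathway, was called (log2 fold 1.66), and 5 of the 8 had a fold below 0 (median −0.04). Those of fat summed to 26.42 and 29.53 in het and to 6.09 and 6.23 in the libraries labelled KO, and those of the epididymis to 2.61 and 3.15 and to 10.29 and 10.64. Their part in the values of the members was not tested.

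**Figure D5:**
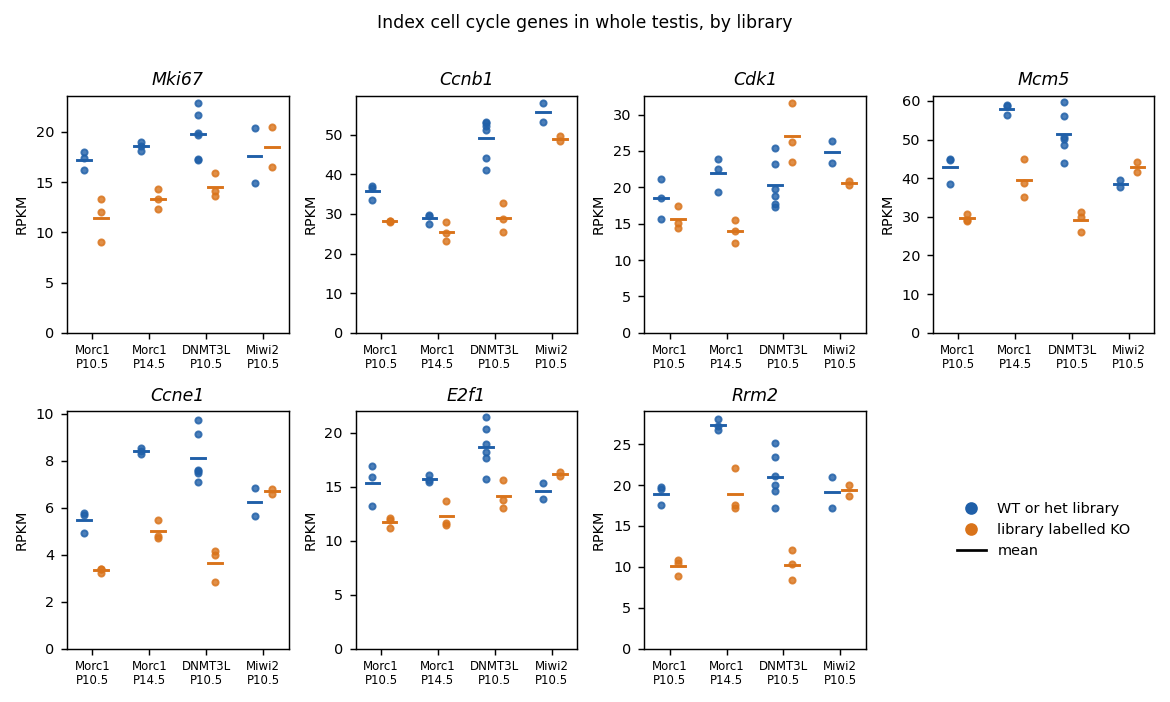
RPKM of 7 index genes in every whole testis library outside the preliminary set, with WT and het libraries in blue, libraries labelled KO in orange and means as bars, with the Morc1 line shown at both ages and the other lines at P10.5. Rrm2, Ccne1 and Mcm5 are lower in every Morc1 and DNMT3L KO library than in the controls of the same set, and Cdk1 is high in the DNMT3L KO libraries.

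Across the 37 members the fall in testis was larger where the level in germ cells was higher relative to testis. With the ratio taken from control testes of the other line, r was −0.46 (rho −0.52) for the folds of Morc1 KO at P10.5 and −0.48 (rho −0.40) for those of DNMT3L KO. Mki67, Cenpe and Cenpf had the highest ratios, at 4.06, 2.92 and 2.84, and Cdk2 the lowest at 0.267. Single members departed from the relation, since the folds of Mki67, Cenpe and Cenpf were −0.57, −0.34 and −0.47 in Morc1 KO (median of the members −0.43) and −0.40, −0.77 and −1.06 in DNMT3L KO (median −0.55). The levels of germ cells and testis come from different kits, and both relations share the sorted het libraries.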

How the data were processed

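RNA-Seq of sorted male germ cells (20 libraries) and whole testis (27) was examined. The authors trimmed reads to 50 bases, discarded rRNA reads, kept unique mm9 alignments with up to 2 mismatches and counted genes with HTSeq defaults. The deposited files give these raw counts and the RPKM the authors made from them. Bowtie is named in the submitters' notes and for the repeat families. HTSeq counts by strand by default, but the testis kit does not mark strand. Opposite-strand exons overlap 32.3% of Kif20a, 17.4% of Ccne2, 14.6% of Ccna2 and 8.7% of Mcm7, where reads cannot be told apart.

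Counts were tested with edgeR 4.0.16 (R 4.3.3: TMM, filterByExpr, quasi-likelihood, two-sided), Benjamini-Hochberg adjusted over all genes tested and called under 0.05. Log2 folds carry their standard error. Fits used the groups compared, all 4 stages of 1 genotype for stage steps, and all groups involved for interactions. RPKM is for display. The preliminary libraries entered only 1 alternative fit, with batch as a term. No replicate was a copy of another. Alternatives used DESeq2 1.42.0, limma 3.58.1 on log2(RPKM + 0.1), other filters, replicate blocks and left-out libraries. The fits were tested on simulated data of a fixed spread, with changes planted only in well-read genes, which does not cover members with few reads. Members and lists were chosen with earlier results of these data known. Genes named are the 7 index genes, the largest changes of each comparison, the exceptions and the members of the pathway lists. Small RNA tables were not used here.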

Additional observations from a re-analysis of the deposited data

Results flagged for a closer look

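In the 4 sorted het libraries of P10.5, 1 library stood apart from the other 3 by more than Dixon's 95% critical value for 4 of the 37 members, where chance gives about 1 in 20. The values were 56.9 RPKM for Mcm2, 38.05 for Mcm5 and 20.71 for Kif20a as the highest library, and 13.21 for Rrm2 as the lowest.

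The change from E18.5 to P2.5 differed between Morc1 KO and het germ cells for Ccnb1 (difference of log2 folds 1.64) and Ccnb2 (−2.55). The effect of the Morc1 KO on testis differed between P14.5 and P10.5 for Ccnb2 (−0.546), Bub1 (−0.512) and Cdc20 (−0.409). The effect of the DNMT3L KO differed from that of the Morc1 KO for Cdk1 (0.733), Ttk (−0.434), Cenpf (−0.548) and Kif20a (−0.515). Of all genes tested 1.13% were called in the first of these comparisons, 8.22% in the next (6.73% as lower) and 17.6% in the last. Leaving out 1 library gave 1 to 11, 0 to 6 and 2 to 8 called members.

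The effect of the Morc1 KO at P10.5 was lower in whole testis than in sorted germ cells for 20 members, against 3.15% of genes tested. This comparison was chosen after the values were seen, kit and sorting differ along with tissue in it, and leaving out 1 library gave 9 to 20 calls. Rrm1 stayed called in 4 of 18 alternative fits, and Cdt1 and Cdc20 in 8. Of the licensing genes the difference of log2 folds was −0.409 for Mcm2, −0.367 for Mcm3, −0.404 for Mcm4, −0.474 for Mcm5, −0.414 for Mcm6, −0.409 for Mcm7 and −0.479 for Cdt1. It was −0.526 for Ccne2, −0.334 for Rrm1, −0.506 for Top2a, −0.436 for Ccna2 and −0.576 for Ccnb1. Of the kinetochore and spindle genes it was −0.457 for Bub1, −0.514 for Bub1b, −0.529 for Ttk, −0.469 for Cenpe, −0.594 for Cenpf, −0.45 for Cdc20, −0.456 for Kif11 and −0.492 for Kif20a.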

How the results depend on the processing

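For members called in a comparison, 3475 values were obtained under alternatives, of which 3162 stayed called, 313 were no longer called and 0 changed sign. Members not called were followed only through the counts, and genes of the wider lists were not followed. Of 281 counts of called members 231 stayed within 1.5 times. The others were as follows, as members called. In one fit over all sorted libraries, 4 differed at E18.5 and 0 at P10.5. With only both stages fitted, het cells gave 8 from E16.5 to E18.5 and 15 from P2.5 to P10.5. With DESeq2 the counts were 4 (Miwi2), 5 (KO cells, P2.5 to P10.5), 2, 5 and 5 (genotype differences over E16.5 to E18.5 and E18.5 to P2.5, and between testis ages) and 7 (between lines). Without a filter they were 5 (KO cells, P2.5 to P10.5), 3, 5 and 5 (the same differences), and with limma on RPKM 1, 1 (genotype difference, E18.5 to P2.5) and 9 (between lines).

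The labels tie replicate numbers to no litter or batch. In no comparison with 3 or more pairs did every pair of same-numbered libraries correlate above 0.1, though single pairs reached 0.47 (Morc1 testis, P14.5) and 0.48 (DNMT3L het against WT), so the numbers were not taken to pair the samples. Fits with a replicate block gave 19 for Miwi2 (12 higher and 7 lower, correlation 0.69 over 2 pairs), 4 for het cells from P2.5 to P10.5, 0 for the genotype difference over E18.5 to P2.5 and 14 for testis against sorted cells.

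Leaving out 1 library gave 3 to 4 calls in sorted cells of P10.5, 30 to 35 and 26 to 33 in Morc1 testis of P10.5 and P14.5, 32 to 35 in DNMT3L and 0 to 6 in Miwi2. It gave 15 to 24, 34 to 35 and 4 to 6 over the steps of het cells, 14 to 22, 33 to 34 and 3 to 7 over those of KO cells, and 18 to 24 between control testes. For genotype differences over the steps it gave 0 to 8, 1 to 11 and 0 to 1, between testis ages 0 to 6, between lines 2 to 8 and between testis and sorted cells 9 to 20. The causes were not tested. Depth limits the 4 libraries of E18.5 and 2 of P2.5 most.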
